A study of Mus musculus with 9 samples.

Results

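The genes described here are those of transforming growth factor beta (TGF beta) signalling: the ligand gene Tgfb1, the receptor genes Tgfbr1, Tgfbr2, Tgfbr3 and Eng, and the signal transducer genes Smad2, Smad3, Smad4 and Smad7. They were chosen by symbol from the array annotation, which gave 1 transcript cluster (a set of probes summed per gene) to each of the 9 genes, out of 18797 genes with a cluster of their own. Their signals were compared on 9 arrays of mouse bone marrow cells, with 3 arrays per group. The groups were cells with a retrovirus carrying GATA2 R396Q cDNA, cells with GATA2 wild type cDNA, and cells with the empty vector MIE, labelled as carrying enhanced green fluorescent protein (EGFP) and no insert. Cells of all groups came from C57BL/6 females aged 8 weeks that were given 5-fluorouracil at 150 mg/kg 6 days before harvest. Cells with the surface phenotype Lin-Sca+Kit+ were infected on consecutive days in the presence of Polybrene and, after 72 h in culture, sorted on GFP. Every cell of the GATA2 groups thus also kept its own Gata2 genes, and the labels give neither the species of the cDNA nor whether the 3 samples within a group are separate mice or cultures. The p-values therefore measure only the spread between these samples, which may be technical.

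TGF beta is secreted in a latent form that has to be released before it acts. The active ligand binds the type II receptor (Tgfbr2), which then phosphorylates the type I receptor (Tgfbr1), and the coreceptors betaglycan (Tgfbr3) and endoglin (Eng) bind ligand and change how it reaches that pair. The type I receptor phosphorylates Smad2 and Smad3, which enter the nucleus with their common partner Smad4, while Smad7 blocks the activated receptor and is itself a gene that the pathway switches on. In blood formation TGF beta is known as a brake on the division of stem cells, and platelets and their precursors are a known store of the ligand.

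A few facts about the arrays bear on all results. The median log2 signal per array was 6.06 to 6.19, and arrays correlated across clusters with a Pearson r of 0.989 to 0.995 within groups and 0.971 to 0.992 between groups. Gata2 had log2 signals of 10.65, 10.72 and 10.53 on the R396Q arrays, 11.50, 11.24 and 10.94 on the wild type arrays and 9.87, 9.67 and 9.65 on the empty vector arrays. Whether its probes read the mouse gene, the cDNA or both is not given in the labels. It was raised with both cDNAs, by 0.90 with R396Q (SE 0.14, limma adjusted p = 0.0394) and by 1.49 with wild type (SE 0.14, adjusted p = 0.00160) over empty vector. Leaving out an array other than wild type 1 or 3 (7 arrays) ended the R396Q call (adjusted p up to 0.155). Between the vectors the Gata2 difference was -0.59 for R396Q minus wild type (SE 0.14, adjusted p = 0.0633, and 0.0222 with the replicate number as a block). Of the markers that define the starting cells, Kit averaged 10.47 ± 0.14 with R396Q, 9.46 ± 0.04 with wild type and 12.28 ± 0.09 with empty vector (SD, n = 3 each). The 9 measured stem and progenitor markers, Kit among them, went both ways. Over empty vector, 2 were called higher and 3 lower with wild type, and 1 higher and 1 lower with R396Q. The neutrophil peroxidase gene Mpo averaged 16.99 ± 0.58 with R396Q, 14.38 ± 1.34 with wild type and 17.52 ± 0.08 with empty vector. Mpo belongs to the 11 neutrophil markers given below, and in each group it averaged above the range of their mean. It does not stand for that list. The surface phenotype in the labels is that of the cells before infection and culture. The 9 measured erythroid markers had a mean log2 signal of 6.37 to 6.68 on the R396Q arrays, 9.12 to 10.02 on the wild type arrays and 6.26 to 6.63 on the empty vector arrays, with 7 called higher and none lower in wild type over empty vector and none below the lower quartile of its array. The 7 megakaryocyte markers ran from 8.25 to 9.03, from 10.99 to 11.56 and from 8.15 to 8.64 in that order (6 higher with wild type). The 10 mast cell and basophil markers ran from 10.12 to 10.93, from 11.74 to 13.04 and from 8.95 to 10.53 (7 higher with wild type). The 11 neutrophil markers ran from 10.25 to 13.46, from 7.44 to 9.94 and from 11.63 to 14.25 (5 lower with wild type and 1 with R396Q, each against empty vector). The 11 monocyte and macrophage markers ran from 7.71 to 8.02, from 7.03 to 7.79 and from 9.0 to 10.48 (6 lower with wild type and 3 with R396Q). Of all clusters, 8.99% were called with wild type and 1.23% with R396Q, each over empty vector. With the replicate number as a block these shares were 17.4% and 3.00%. Under the block, 10 neutrophil markers and 7 monocyte and macrophage markers were lower with wild type, and 2 and 4 with R396Q. The erythroid, megakaryocyte and mast cell and basophil markers higher with wild type then numbered 7, 6 and 8. The part of these shifts in the results below was not tested. In such bulk samples fewer cells of a type and less RNA per cell cannot be told apart.

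**Figure D1:**
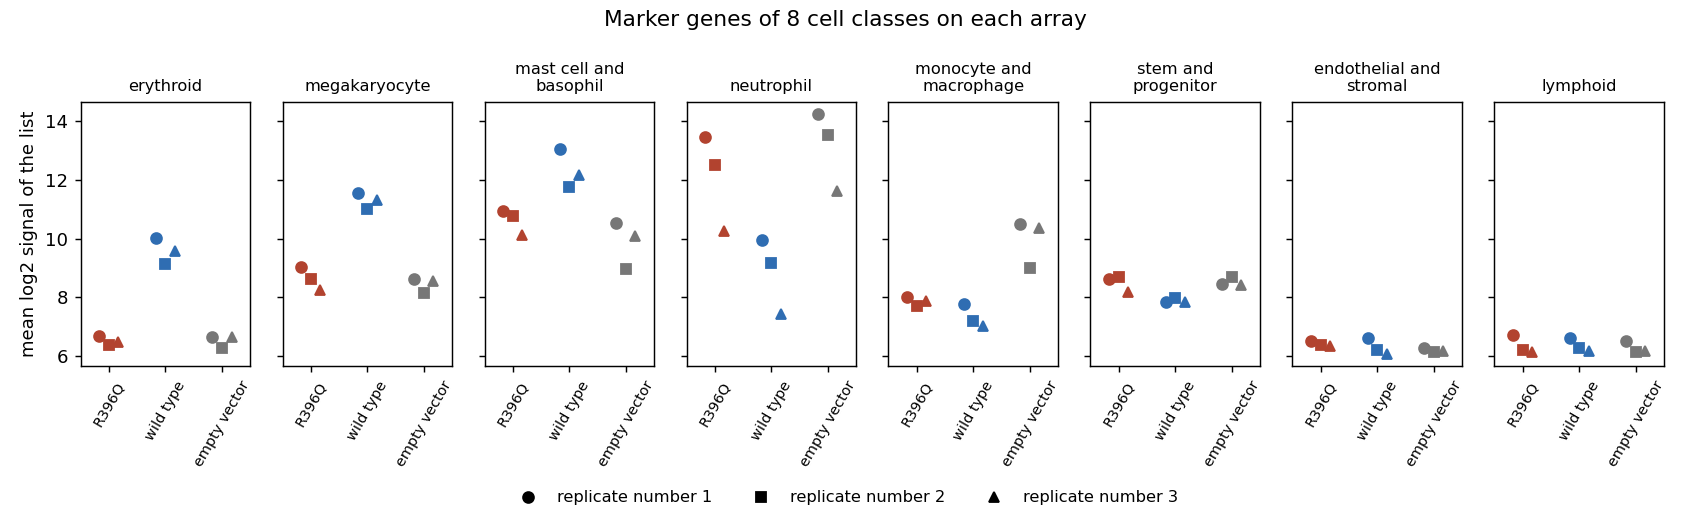
Mean log2 signal of the marker genes of 8 cell classes on each array, with R396Q, wild type and empty vector from left to right in each panel and a symbol per replicate number. The wild type arrays stand above the others for erythroid, megakaryocyte and mast cell and basophil markers, and the empty vector arrays stand highest for monocyte and macrophage markers (9.0 to 10.48).

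Both GATA2 forms raised the ligand Tgfb1 and the coreceptor Tgfbr3, while the other calls against empty vector came with wild type. With wild type, Tgfb1, Tgfbr3, Eng and Smad7 rose and Smad2 and Smad4 fell against empty vector. With R396Q only Tgfb1 and Tgfbr3 passed the test against empty vector. Set against wild type, R396Q had more Tgfbr1 and Smad4 and less Eng. In counts, 6 of 9 genes passed the test in wild type over empty vector, where 8.99% of all 21072 clusters did, 2 of 9 in R396Q over empty vector (1.23% of all clusters) and 3 of 9 in R396Q over wild type (5.75% of all clusters). By direction, 4 rose and 2 fell in the first comparison (4.64% and 4.35% of all clusters), 2 rose and 0 fell in the second (0.660% and 0.569%), and 2 were higher and 1 lower in the third (2.67% and 3.08%). The test was limma with Benjamini-Hochberg adjustment over all clusters of a comparison at a threshold of 0.05, on the means of 3 arrays per group. Every change below is a difference of log2 signals with its standard error (SE) or 95% confidence interval. With the replicate number as a block, 6, 2 and 5 of the 9 genes passed, where 17.4%, 3.00% and 13.1% of all clusters did. No array of a group reached into the other group's range in 8 of 9 genes for wild type and empty vector (22.6% of all clusters), 6 of 9 for R396Q and empty vector (14.1%) and 7 of 9 for R396Q and wild type (20.6%). A moderated F test for any difference among the 3 groups called 5 of 9 (8.31% of all clusters), namely Tgfb1, Tgfbr1, Tgfbr3, Eng and Smad4. The shares over all clusters count dim clusters as well, while the 9 genes had mean signals at percentiles 54.7 to 98.1 of all clusters. With the dimmest 50% of clusters left out, 1890, 287 and 1305 clusters were still called in the 3 comparisons, in the order given above. Of the 9 genes, 5, 2 and 3 were then called. None of these shares carries independent weight, since the genes were proposed with results of the same arrays known, and the 3 comparisons share arrays.

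**Figure D2:**
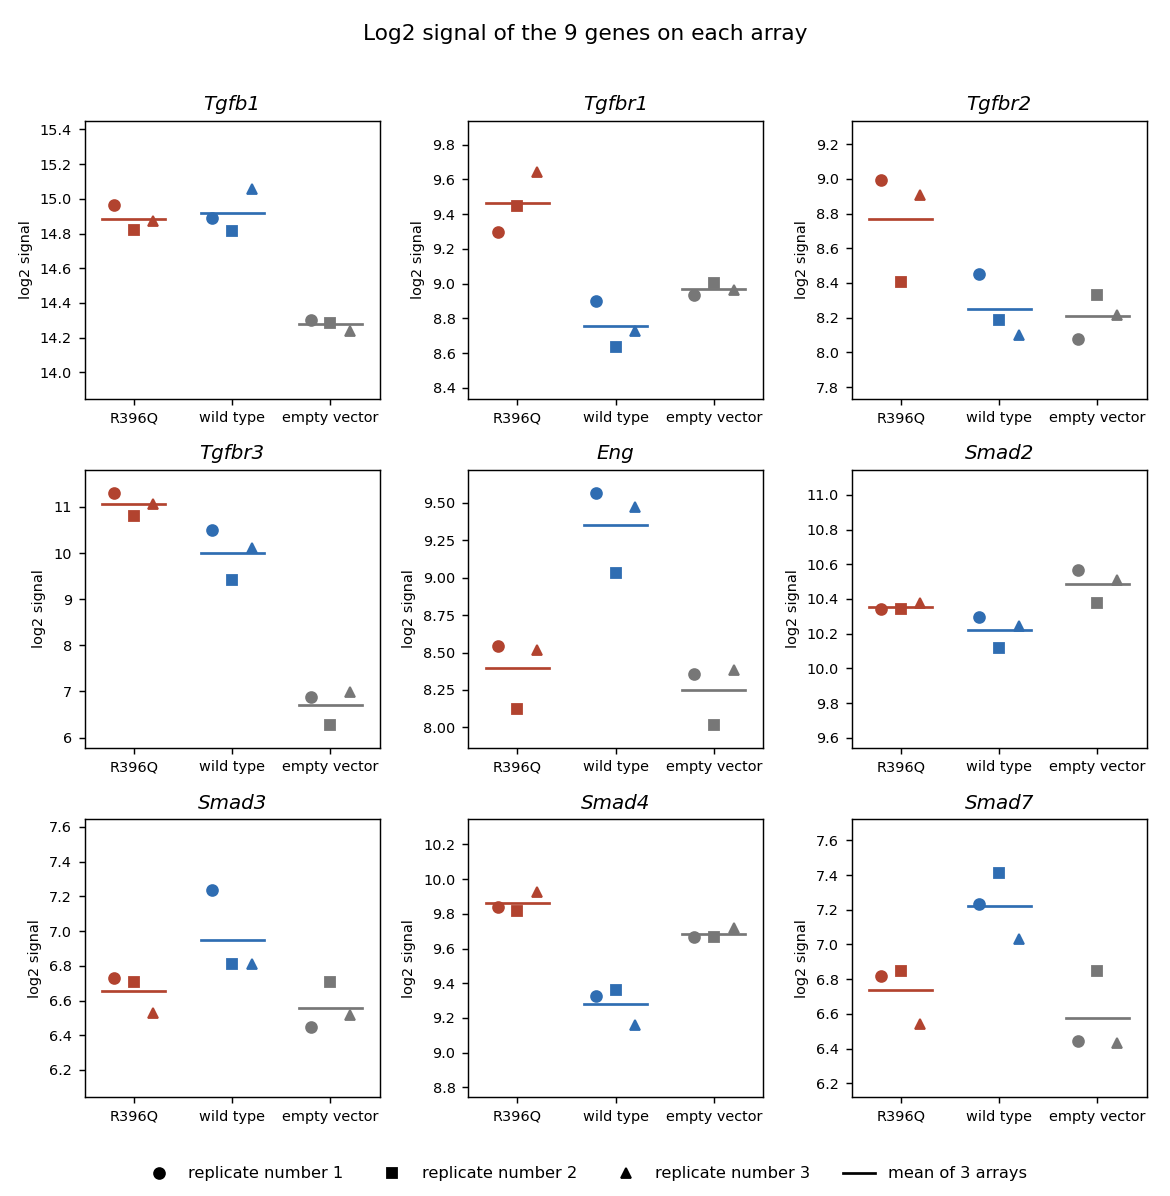
Log2 signal of the 9 genes on each array (own vertical scale per panel, points are arrays with a symbol per replicate number, lines are means of 3 arrays), with R396Q, wild type and empty vector from left to right. Tgfbr3 lies at 10.80 to 11.30 with R396Q, 9.41 to 10.50 with wild type and 6.28 to 6.98 with empty vector. The wild type arrays stand above all others for Eng, and the R396Q arrays stand above all others for Tgfbr1, whose change from empty vector did not pass the test (adjusted p = 0.0787).

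Tgfb1, the ligand gene, had log2 signals of 14.96, 14.82 and 14.87 with R396Q, 14.89, 14.81 and 15.06 with wild type, and 14.30, 14.28 and 14.24 with empty vector. Its mean over the arrays lay at the percentile 98.1 of all clusters, and every array of both GATA2 groups stood above every empty vector array, while the GATA2 groups overlapped. Wild type raised it by 0.64 (SE 0.07, 1.56-fold, limma adjusted p = 0.00235), a call kept under all 19 alternative settings. R396Q raised it by 0.61 (SE 0.07, adjusted p = 0.0134), and this call was lost without R396Q 1 or without R396Q 3 (adjusted p up to 0.0543). R396Q minus wild type was -0.04 with an interval of -0.20 to 0.13 (adjusted p = 0.885), so a difference of more than 0.20 on the log2 scale between the forms lies outside the interval.

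Tgfbr3 encodes betaglycan, a coreceptor that binds TGF beta and presents it to the type II receptor, and it moved most among the 9 genes. The log2 signals were 11.30, 10.80 and 11.07 with R396Q, 10.50, 9.41 and 10.12 with wild type and 6.88, 6.28 and 6.98 with empty vector. None of the 3 groups overlapped another, and the order was R396Q over wild type over empty vector. R396Q stood 4.35 above empty vector (SE 0.31, 20.3-fold, limma adjusted p = 0.00271), which was the change ranked 6 by size among 21072 clusters. Wild type stood 3.30 above empty vector (SE 0.31, 9.85-fold, adjusted p = 0.00165), ranked 117 by size. Both calls were kept under all 19 alternatives. The step between the forms, R396Q minus wild type, was 1.05 with an interval of 0.30 to 1.79 and did not pass the test (adjusted p = 0.127), while with the replicate number as a block it did (SE 0.14, adjusted p = 0.0133). Within replicate numbers 1, 2 and 3 that step was 0.79, 1.40 and 0.95.

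Eng, which encodes endoglin, a coreceptor known from blood vessels and also from early blood cells, was raised by wild type, while its change with R396Q did not pass the test. It had log2 signals of 8.54, 8.12 and 8.52 with R396Q, 9.56, 9.03 and 9.47 with wild type and 8.36, 8.02 and 8.38 with empty vector. All wild type arrays stood above all other arrays, and R396Q overlapped empty vector. Wild type was higher than empty vector by 1.10 (SE 0.19, 2.14-fold, limma adjusted p = 0.0136). That call was kept under all 19 alternatives. R396Q minus empty vector was 0.14 (interval -0.30 to 0.58, adjusted p = 0.834). R396Q was lower than wild type by a log2 change of -0.96 (SE 0.19, 1.94-fold, adjusted p = 0.0306). This call ended in a fit on the 2 groups alone and on leaving out an array other than wild type 2 or empty vector 2 (7 arrays), with an adjusted p of up to 0.0949. Within numbers 1, 2 and 3 the same difference was -1.02, -0.91 and -0.95, and with the block its SE was 0.04 (adjusted p = 0.00124). The arrays numbered 2 had the lowest Eng and the lowest Tgfbr3 signal in each of the 3 groups, with mean deviations from the group means of -0.28 and -0.43.
Since endoglin also marks vessels, endothelial and stromal markers were read beside it. Of 11 such genes, 1 was called higher and none lower in each comparison: Tek in wild type over empty vector and Pecam1 in R396Q over empty vector and over wild type. That was 9.09% of the list each time. Of all clusters, 8.99% were called in wild type over empty vector, 1.23% in R396Q over empty vector and 5.75% in R396Q over wild type. The mean log2 signal of the 11 genes ran from 6.36 to 6.50 with R396Q, from 6.06 to 6.62 with wild type and from 6.15 to 6.28 with empty vector. Levels within the list differed widely. Cdh5, the cadherin of vessel lining cells, was in the bottom quartile of clusters on all 9 arrays (means of 4.33, 4.38 and 4.46 in the same order). Pecam1 averaged 11.70, 10.22 and 10.31 and Pdgfrb 9.93, 8.47 and 9.62 in that order. Whether vessel or stromal cells were present was not tested.

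Of the pair of signalling receptors, Tgfbr1 was called higher in R396Q than in wild type, and Tgfbr2 passed the test in no comparison. Tgfbr1, the type I receptor, had log2 signals of 9.30, 9.45 and 9.64 with R396Q, 8.90, 8.64 and 8.73 with wild type and 8.93, 9.0 and 8.96 with empty vector. The 3 groups did not overlap, with R396Q highest and wild type lowest. R396Q was above wild type by 0.71 (SE 0.10, 1.64-fold, limma adjusted p = 0.00902), a call lost only in a fit on these 2 groups alone (adjusted p = 0.0520) among the 19 alternatives. Against empty vector neither form passed the test, with 0.50 for R396Q (interval 0.26 to 0.73, adjusted p = 0.0787) and -0.21 for wild type (interval -0.45 to 0.02, adjusted p = 0.267). Tgfbr2, the type II receptor that binds the ligand, had signals of 8.99, 8.41 and 8.91 with R396Q, 8.45, 8.19 and 8.10 with wild type and 8.07, 8.33 and 8.22 with empty vector. All R396Q arrays stood above all empty vector arrays, and R396Q 2 lay apart from the other R396Q arrays and within the range of wild type. No Tgfbr2 difference passed the test: 0.56 for R396Q minus empty vector (interval 0.16 to 0.97, limma adjusted p = 0.238), 0.52 for R396Q minus wild type (interval 0.12 to 0.93, adjusted p = 0.160) and 0.04 for wild type minus empty vector (interval -0.36 to 0.45, adjusted p = 0.935). Without R396Q 2 the difference of R396Q from wild type was called, at an adjusted p of 0.0437.

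**Figure D3:**
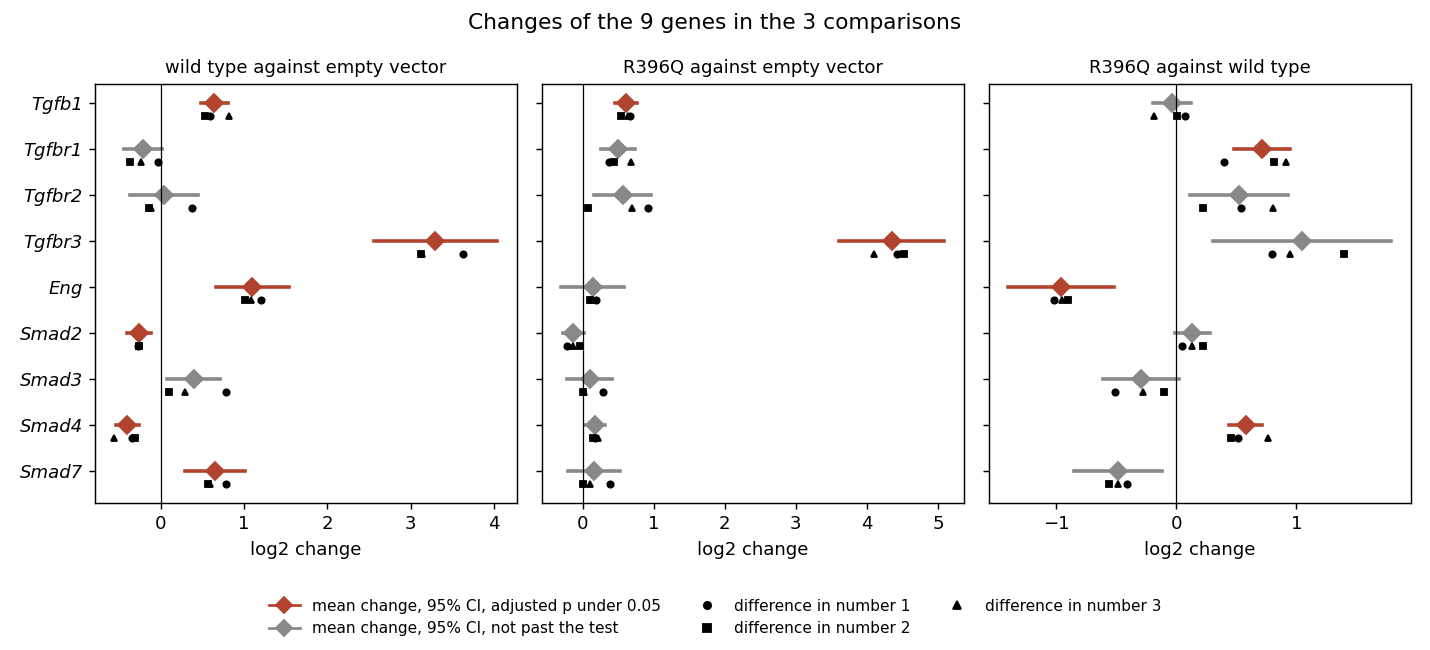
Log2 change of each of the 9 genes in the 3 comparisons, as the mean change with its 95% confidence interval (diamond and bar, red where the limma adjusted p is under 0.05) and as the differences within replicate numbers 1 to 3 (small black symbols). Tgfbr3 stands far to the right in both comparisons with empty vector (3.30 and 4.35), and Eng and Tgfbr1 lie on opposite sides of 0 in R396Q against wild type (-0.96 and 0.71).

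RefSeq promoter windows were searched for Tgfb1, Tgfbr1, Tgfbr2, Eng and Smad3. The search left out the chromosome that carries Smad2, Smad4 and Smad7, and Tgfbr3 had no window. The 250 bases before the start site (build GRCm38.p6) are given for the called genes among them, which stand for the patterns seen: raised by both forms (Tgfb1), called with wild type and not with R396Q over empty vector (Eng) and higher with R396Q than with wild type (Tgfbr1, at its upstream start). Capitals mark the Smad box CAGAC on either strand. GATA hexamers, meaning AGATA or TGATA followed by A or G, were sought on both strands as well.
Tgfb1, chr7:25686752-25687001, plus strand: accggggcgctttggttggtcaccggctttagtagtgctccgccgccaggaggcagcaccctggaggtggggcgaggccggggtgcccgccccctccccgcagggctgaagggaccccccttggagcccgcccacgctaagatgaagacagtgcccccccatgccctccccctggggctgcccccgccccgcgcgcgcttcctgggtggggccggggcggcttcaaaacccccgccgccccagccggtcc
Eng, chr2:32646345-32646594, plus strand: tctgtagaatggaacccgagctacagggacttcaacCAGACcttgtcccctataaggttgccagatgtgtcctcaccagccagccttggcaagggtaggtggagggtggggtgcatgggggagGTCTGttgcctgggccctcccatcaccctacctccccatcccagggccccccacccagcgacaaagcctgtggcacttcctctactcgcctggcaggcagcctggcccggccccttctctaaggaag
Tgfbr1, chr4:47352972-47353221, plus strand: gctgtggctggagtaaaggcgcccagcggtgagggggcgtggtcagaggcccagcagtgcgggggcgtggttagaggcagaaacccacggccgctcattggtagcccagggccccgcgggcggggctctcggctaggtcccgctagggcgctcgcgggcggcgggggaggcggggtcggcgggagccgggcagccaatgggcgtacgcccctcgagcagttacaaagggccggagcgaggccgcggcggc
No GATA hexamer stood in any of the 6 windows of the 5 genes. Of all 32536 promoter windows of this length, 26.5% held at least 1 such hexamer. The called genes on the chromosome left out of the search, and Tgfbr3, are not in the count for the 5 genes. The shares were taken over all windows, so count and share rest on unlike sets and were not compared by a test. The Smad box occurred in 3 of the 6 windows, against 42.2% of all windows: at 2 places before Eng (214 to 210 and 127 to 123 bases before the start), and once each before Tgfbr2 and the second start of Tgfbr1. A match is a run of letters and not a bound site, and a window without one says nothing about binding elsewhere.

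Smad4, the common partner that carries the receptor Smads into action, was lower with wild type than with empty vector and higher with R396Q than with wild type, while R396Q against empty vector did not pass the test. Its log2 signals were 9.84, 9.82 and 9.93 with R396Q, 9.33, 9.36 and 9.16 with wild type and 9.67, 9.67 and 9.72 with empty vector. The 3 groups did not overlap. Wild type was below empty vector by a change of -0.40 (SE 0.06, 1.32-fold, limma adjusted p = 0.00761). R396Q was above wild type by 0.58 (SE 0.06, 1.49-fold, adjusted p = 0.00268). Both calls were kept under all 19 alternatives. R396Q minus empty vector was 0.18 (interval 0.04 to 0.31, adjusted p = 0.276).

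Smad2 and Smad3, the Smads that the TGF beta receptor phosphorylates, had small differences. Smad2 had log2 signals of 10.34, 10.34 and 10.38 with R396Q, 10.30, 10.12 and 10.24 with wild type and 10.57, 10.38 and 10.51 with empty vector. No group overlapped another, though R396Q 3 and empty vector 2 were equal to 2 decimals, and empty vector was highest and wild type lowest. Wild type was lower than empty vector by a change of -0.27 (SE 0.06, 1.20-fold), with a limma adjusted p of 0.0432 that passed the threshold under 7 of 19 alternatives, the replicate block among them (adjusted p = 0.0168). The call ended on leaving out any array except empty vector 2, with trend and robust options, without the dimmest 50% of clusters, with at least 6 distinct values and in a fit on the 2 groups alone (adjusted p up to 0.141). R396Q minus empty vector was -0.13 (interval -0.28 to 0.01, adjusted p = 0.469). R396Q minus wild type was 0.13 (interval -0.01 to 0.28, adjusted p = 0.327). Smad3 had signals of 6.73, 6.70 and 6.53 with R396Q, 7.24, 6.81 and 6.81 with wild type and 6.45, 6.70 and 6.51 with empty vector. The wild type arrays stood above all others, with wild type 1 farthest away. No difference of Smad3 passed the test, with 0.40 for wild type minus empty vector (interval 0.08 to 0.71, adjusted p = 0.137), 0.10 for R396Q minus empty vector (interval -0.22 to 0.41, adjusted p = 0.840) and -0.30 for R396Q minus wild type (interval -0.61 to 0.02, adjusted p = 0.315).

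Smad7, the inhibitory Smad, was highest with wild type. It had log2 signals of 6.82, 6.85 and 6.54 with R396Q, 7.23, 7.41 and 7.03 with wild type and 6.44, 6.85 and 6.43 with empty vector. All wild type arrays stood above the rest, and R396Q overlapped empty vector. Wild type raised it by 0.65 (SE 0.15, 1.57-fold, limma adjusted p = 0.0460), which held under 9 of 19 alternatives. It ended on leaving out any array except empty vector 2, after quantile normalization and in a fit on the 2 groups alone (adjusted p up to 0.134), while with the block the adjusted p was 0.00650. R396Q minus wild type was -0.49 (interval -0.85 to -0.12) and did not pass without the block (adjusted p = 0.144) but did with it (adjusted p = 0.0179). R396Q minus empty vector was 0.16 (interval -0.20 to 0.53, adjusted p = 0.745).
Smad2, Smad3, Smad4 and Smad7 each held 8 distinct values on the 9 arrays. R396Q 2 and empty vector 2, for example, shared 1 value in Smad3 (6.70) and 1 in Smad7 (6.85), as deposited, so that the difference within number 2 was 0. Such ties occur across the table.

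The genes whose signals ran most like those of each called gene over the 9 arrays were sought among 18557 others, as a description over arrays that share 3 groups. For Tgfb1 they were Vezf1, Gfpt1 and Lemd1 (Pearson r of 0.987, 0.976 and 0.963). Tgfbr3 ran most like Ugcg, Ano7 and Nmur1 (0.987, 0.975 and 0.974), and Eng like Cyb5r3, Kdm5b and Tmem9 (0.990, 0.989 and 0.987). Closest to Tgfbr1 were Abcc2, Rtn4r and Reps1 (0.976, 0.968 and 0.951). Smad4 ran most like Lima1, Sun2 and Erg (0.991, 0.974 and 0.973), Smad2 like Slc25a45, Timm50 and Ptpn6 (0.991, 0.980 and 0.980), and Smad7 like Lims1, Dym and Tlk1 (0.990, 0.976 and 0.971).

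The other genes of the pathway were read from 6 lists with 98 measured genes of 104. Wild type against empty vector called 18.4% of them, 5 higher and 13 lower (12 and 15 with the replicate block), beside 8.99% of all clusters. R396Q against empty vector called 6.12%, 0 higher and 6 lower (3 and 6 with the block), beside 1.23% of all clusters. R396Q against wild type called 11.2%, 6 higher and 5 lower (13 and 7 with the block), beside 5.75% of all clusters. With the block, 17.4%, 3.00% and 13.1% of all clusters were called in these comparisons. The counts per list below stand beside the same shares. The median change of the 98 genes was -0.0030, 0.0083 and 0.0060 in these comparisons, near the medians of all clusters (-0.0087, -0.0066 and 0).

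**Figure D4:**
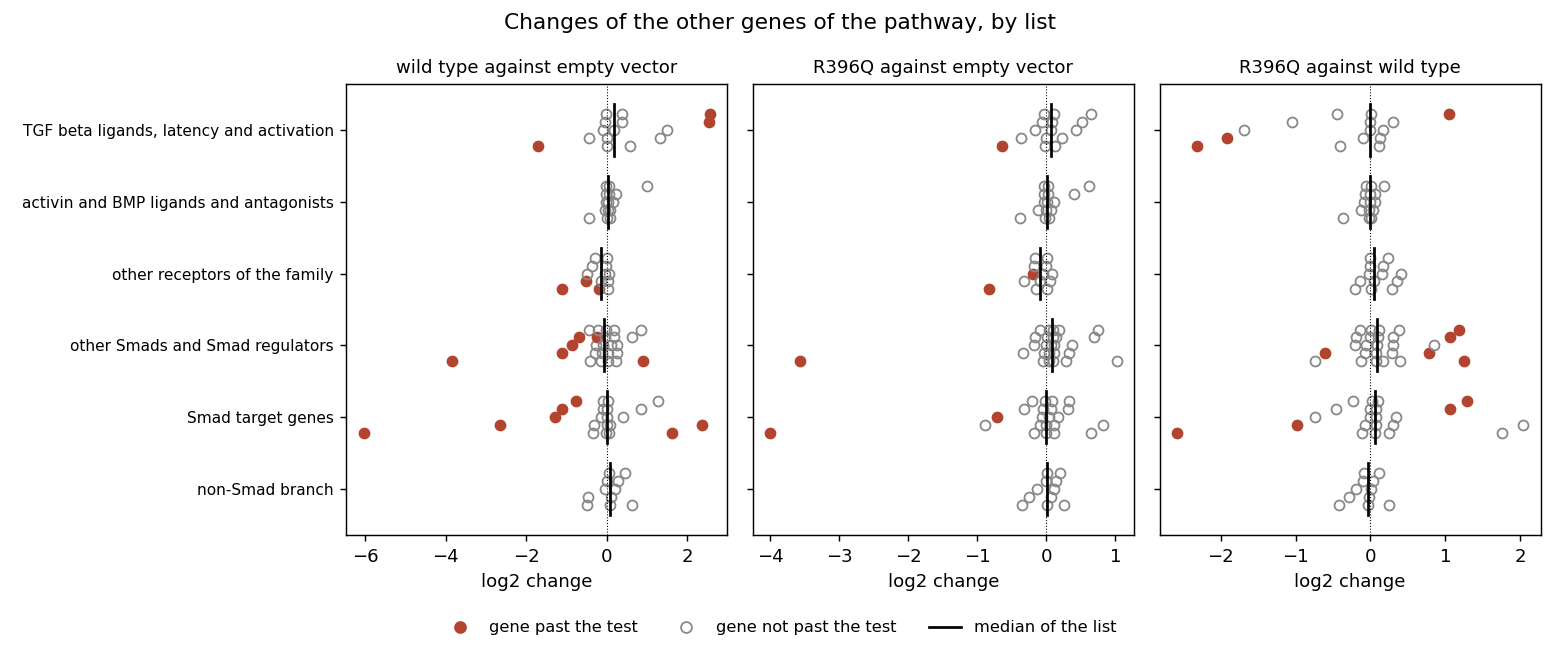
Log2 change of each measured gene of the 6 pathway lists in the 3 comparisons (filled where the limma adjusted p is under 0.05, bars are list medians, own horizontal scale per panel). Most genes lie near 0, while Tgfbi and Dab2 lie far to the left in both comparisons with empty vector (-6.04 and -3.85 with wild type).

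Ltbp1, Furin and Nrros were the called genes among those that handle the latent ligand. Of 15 genes of ligands, latency and activation, 2 rose and 1 fell with wild type over empty vector, none rose and 1 fell with R396Q over empty vector, and 1 was higher and 2 were lower in R396Q than in wild type. Ltbp1, which binds the latent complex and tethers it to matrix, had log2 signals of 5.77, 5.41 and 5.51 with R396Q, 8.39, 7.57 and 7.67 with wild type and 5.44, 5.18 and 5.39 with empty vector. It was 5.81-fold higher in wild type than in empty vector (2.54, SE 0.22, limma adjusted p = 0.00116), and R396Q was lower than wild type by a change of -2.31 (SE 0.22, adjusted p = 0.00228). Furin, the protease that cuts the TGF beta precursor, had signals of 8.27, 8.57 and 8.49 with R396Q, 10.62, 9.92 and 10.53 with wild type and 7.84, 7.35 and 8.21 with empty vector. It rose 5.89-fold with wild type (2.56, SE 0.26, adjusted p = 0.00208) and was lower in R396Q than in wild type (-1.91, SE 0.26, adjusted p = 0.00862). Nrros, which anchors latent TGF beta on myeloid cells, had signals of 10.39, 10.35 and 10.36 with R396Q, 9.47, 9.28 and 9.18 with wild type and 10.97, 11.13 and 10.93 with empty vector. It fell with wild type (-1.70, SE 0.08, limma adjusted p = 0.000180) and with R396Q (-0.65, SE 0.08, adjusted p = 0.0188, lost without any 1 R396Q array or empty vector 1, adjusted p up to 0.0872), and R396Q stood 1.05 above wild type (adjusted p = 0.00123). In the list of 15 activin and bone morphogenetic protein (BMP) ligands and antagonists limma called none in any comparison, 1 rose with wild type over empty vector under the block, and 2, 2 and 0 had an unadjusted p under 0.05 in wild type over empty vector, R396Q over empty vector and R396Q over wild type. Those with the smallest p there included Gdf11 in wild type over empty vector (0.99, unadjusted p = 0.0178) and Bmp7 in R396Q over empty vector (0.40, unadjusted p = 0.0223).

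**Figure D5:**
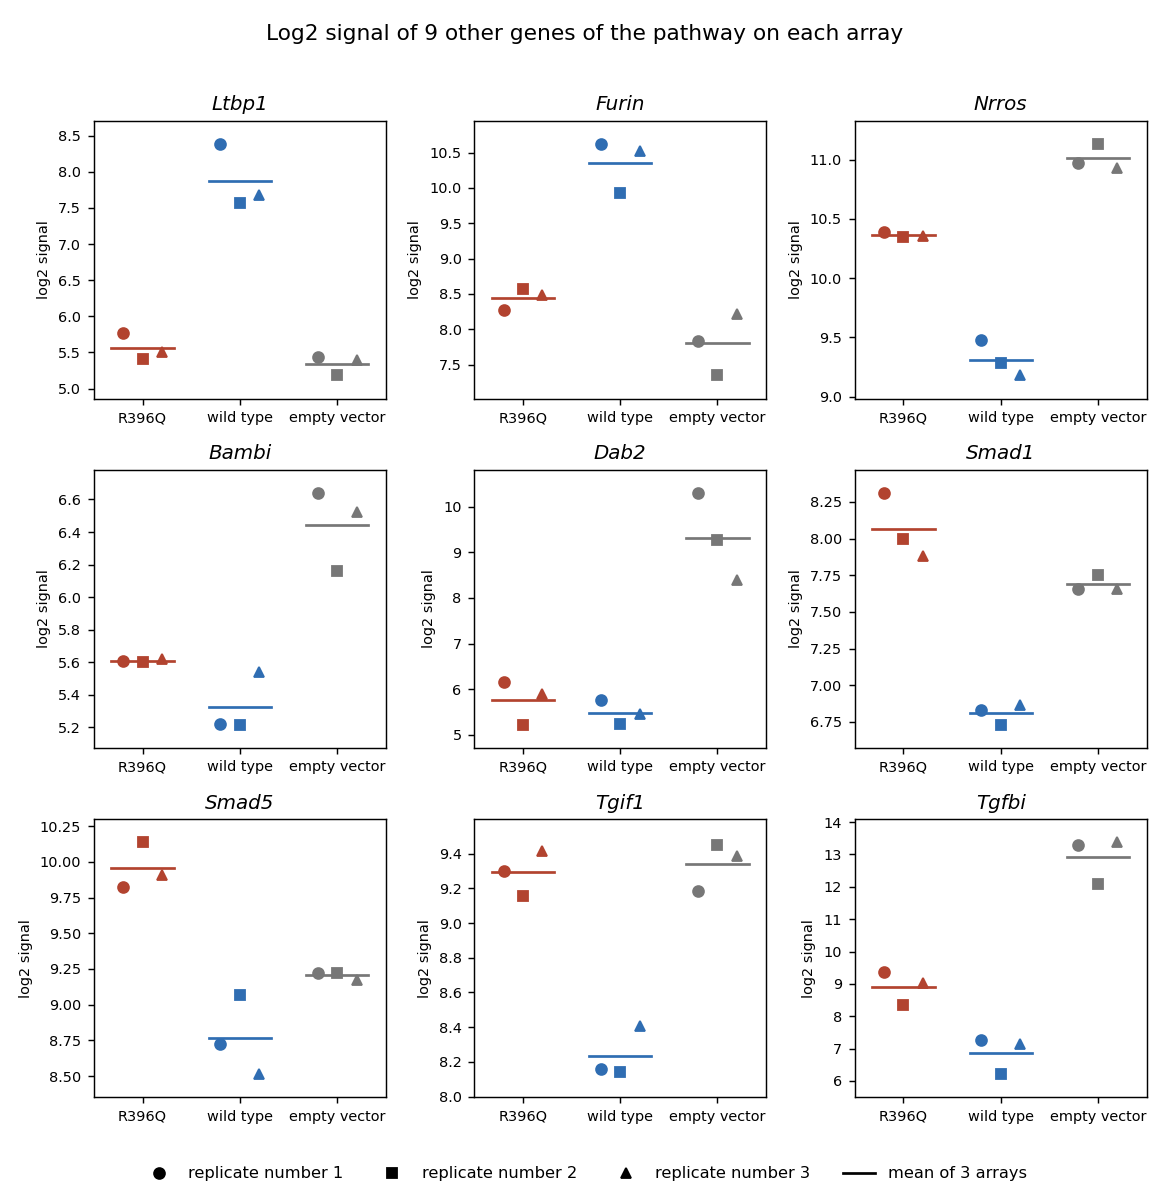
Log2 signal on each array of 9 other pathway genes that passed the test (own vertical scale per panel, points are arrays with a symbol per replicate number, lines are means of 3 arrays), with R396Q, wild type and empty vector from left to right. Ltbp1 and Furin are high with wild type alone, and Dab2 is high with empty vector alone. Tgfbi is highest with empty vector and lowest with wild type, and Smad1 and Smad5 are highest with R396Q and lowest with wild type.

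Among 13 other receptors of the family none rose, 3 fell with wild type over empty vector and 2 with R396Q over empty vector, and none was called between the forms (2 higher in R396Q with the block). Bambi, a decoy receptor that lacks the kinase part, had log2 signals of 5.61, 5.60 and 5.62 with R396Q, 5.22, 5.22 and 5.54 with wild type and 6.64, 6.16 and 6.52 with empty vector, with all empty vector arrays on top. It fell with wild type (-1.12, SE 0.14, limma adjusted p = 0.00405) and with R396Q (-0.83, SE 0.14, adjusted p = 0.0462), the second call ending in a fit on the 2 groups alone and without any array except empty vector 2 (adjusted p up to 0.170). Bmpr2, a type II receptor for BMP, fell with wild type (-0.52, SE 0.08, adjusted p = 0.00906). Acvrl1, a type I receptor of vessels, fell by small steps (-0.21 with wild type, adjusted p = 0.00317, and -0.20 with R396Q, adjusted p = 0.0153). Both calls rest on low signals of 5.17 to 5.42, below the median of every array. R396Q 2, wild type 2 and wild type 3 shared the same value (5.22). The R396Q call of Acvrl1 was lost without any 1 R396Q array, after median subtraction or quantile normalization, without the dimmest 30% of clusters and with at least 6 distinct values (adjusted p up to 0.264).

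Smad1 and Smad5, the Smads of the BMP branch, had their group means in the same order as Smad4. Smad1 had log2 signals of 8.31, 8.00 and 7.88 with R396Q, 6.83, 6.73 and 6.86 with wild type and 7.66, 7.75 and 7.66 with empty vector, without overlap between groups. It fell with wild type over empty vector (-0.88, SE 0.11, limma adjusted p = 0.00378) and was 2.39-fold higher in R396Q than in wild type (1.25, SE 0.11, adjusted p = 0.00156). Smad5 had signals of 9.83, 10.14 and 9.91 with R396Q, 8.73, 9.07 and 8.52 with wild type and 9.22, 9.22 and 9.17 with empty vector, and was 2.28-fold higher in R396Q than in wild type (1.19, SE 0.14, adjusted p = 0.00518). Of the 26 other Smads and Smad regulators, 1 rose and 5 fell with wild type over empty vector (3 and 5 with the block), 1 fell with R396Q over empty vector (3 rose and 1 fell with the block), and 4 were higher and 1 lower in R396Q than in wild type (7 and 2 with the block). Dab2, an adaptor that binds the receptors and Smads, had signals of 6.16, 5.22 and 5.90 with R396Q, 5.75, 5.23 and 5.44 with wild type and 10.30, 9.27 and 8.39 with empty vector. It fell 14.4-fold with wild type (-3.85, SE 0.48, limma adjusted p = 0.00445) and 11.8-fold with R396Q (-3.56, SE 0.48, adjusted p = 0.0228, lost in a fit on the 2 groups alone and on leaving out an array other than empty vector 1 or 3, adjusted p up to 0.126). Tgif1, a repressor that works with Smads, fell with wild type (-1.11, SE 0.11, adjusted p = 0.00178) and was higher in R396Q than in wild type (1.06, SE 0.11, adjusted p = 0.00282). Ski, a repressor of Smad4 complexes, rose with wild type (0.89, SE 0.12, adjusted p = 0.00653) and was lower in R396Q than in wild type (-0.61, SE 0.12, adjusted p = 0.0353, lost in a fit on the 2 groups alone and without any array except wild type 3, adjusted p up to 0.109). Fkbp1a, which keeps the type I receptor quiet, was the remaining gene higher in R396Q than in wild type (0.78, SE 0.16, adjusted p = 0.0380, lost under 10 of 19 alternatives), and it was named after its values were seen. It was also among the 5 that fell with wild type over empty vector (-0.68, SE 0.16, adjusted p = 0.0437), a call lost under 12 of 19 alternatives, the block among them (adjusted p = 0.0546).

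Genes known as targets of Smads moved in both directions. The list was not split by the direction in which Smads move each gene, so the counts do not measure the activity of the pathway. Of 22 measured, 2 rose and 5 fell with wild type over empty vector (4 and 5 with the block), none rose and 2 fell with R396Q over empty vector (1 and 2 with the block), and 2 were higher and 2 lower in R396Q than in wild type (5 and 3 with the block, and 2 called in all without R396Q 1). Tgfbi, a secreted matrix protein named for its induction by TGF beta and also strong in monocytes, had log2 signals of 9.37, 8.35 and 9.04 with R396Q, 7.28, 6.22 and 7.14 with wild type and 13.28, 12.10 and 13.37 with empty vector. It fell with wild type by a change of -6.04 (SE 0.46, limma adjusted p = 0.000683) and with R396Q by -4.00 (SE 0.46, adjusted p = 0.0150, lost without R396Q 2 or 3 and in a fit on the 2 groups alone, adjusted p up to 0.0657), beside the lower monocyte markers given above, whose part was not tested. Cdkn1a, the cell cycle inhibitor p21, had signals of 14.38, 14.64 and 14.66 with R396Q, 15.49, 15.31 and 15.81 with wild type and 13.91, 13.66 and 14.17 with empty vector. It rose with wild type (1.62, SE 0.17, limma adjusted p = 0.00254) and was lower in R396Q than in wild type (-0.98, SE 0.17, adjusted p = 0.0229, lost without any 1 R396Q array, without wild type 1 or 3 and in a fit on the 2 groups alone, adjusted p up to 0.0844). Id2, an inhibitor of differentiation factors, averaged 9.63 ± 0.56 with R396Q, 12.21 ± 0.46 with wild type and 9.84 ± 0.56 with empty vector (SD, n = 3 each). Its wild type minus empty vector difference was 2.37 (SE 0.40, limma adjusted p = 0.0137), and R396Q minus wild type was -2.58 (SE 0.40, adjusted p = 0.0132, and 0.0530 without R396Q 1). Myc, a growth gene that TGF beta is known to repress, fell with wild type (-1.29, SE 0.18, adjusted p = 0.00733) and was 2.45-fold higher in R396Q than in wild type (1.29, SE 0.18, adjusted p = 0.0101). Bcl2l11, which promotes cell death, fell with both forms (-0.78 with wild type, adjusted p = 0.00359, and -0.72 with R396Q, adjusted p = 0.0188, the second lost without R396Q 1 or 2 or empty vector 3, after quantile normalization and in a fit on the 2 groups alone, adjusted p up to 0.102). In the non-Smad branch limma called none of 11 genes in any comparison (2 rose and 1 fell with wild type under the block), with 3, 0 and 0 at an unadjusted p under 0.05 in the same order of comparisons. The smallest p there was that of Tab3, an adaptor of the TAK kinase, in wild type over empty vector (0.62, SE 0.21, adjusted p = 0.129).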

How the data were processed

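The deposited values are log2 signals per transcript cluster. Per the submitters' processing notes, the authors computed them by RMA, a method that subtracts background, aligns the arrays' distributions and summarizes probes, in Expression Console of Affymetrix. Software version and genome build are not given in the sources used here. Mouse Exon 1.0 ST is the array type that the labels name, while the cluster identifiers are of a later type. All 9 sample columns and all 21072 clusters were tested, without a filter on low values. Symbols came from the array annotation, updated through gene identifiers (18236 matched, 418 changed). A symbol with several clusters was read from the one with the highest mean, and each of the 9 genes had 1 cluster.

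Each cluster was fitted with limma 3.58.1 in R 4.3.3 (1 mean per group over 9 arrays, 6 residual and 0.956 prior degrees of freedom), 2-sided, with Benjamini-Hochberg adjustment over all clusters and a threshold of 0.05. The fit was tested on simulated data with independent noise on each array and no deviation shared by replicate number, and the outcome is not reported here. The 9 genes and all lists were chosen with earlier results of these data known. Named besides the 9 genes and Gata2 were, per pathway list and comparison, up to 4 called genes with the smallest p (up to 2 uncalled where none was called), and the 3 genes most correlated with each called gene; the text prints a part. Marker lists are given by counts and levels.

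Arrays with the same replicate number in different groups deviated from their group means together (r of 0.451 to 0.693 in 9 pairs). In the 18 pairs with different numbers r was -0.537 to -0.0900. Those negative values carry no separate weight, since the deviations cancel out within each group. Arrays of the same number were taken as paired, and the number was used as a block in an alternative fit. The labels do not say what such arrays share. Other alternatives were fits on the groups compared, trend and robust options, array weights, median subtraction, quantile normalization, removal of clusters that were among the dimmest 30% or 50% or had fewer than 6 distinct values, the mean of all clusters that share a symbol, and each array left out in turn. The number of arrays limits the precision.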

Additional observations from a re-analysis of the deposited data

How the results depend on the processing

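Of 513 repeats of the 27 changes (9 genes in 3 comparisons, 19 settings each), 477 kept the side of the threshold, 33 calls were lost, 3 were gained and none changed direction as a call. Of all 21072 clusters, 1894, 259 and 1211 were called in wild type over empty vector, R396Q over empty vector and R396Q over wild type, 3667, 632 and 2750 with the replicate block, and 1026, 94 and 772 in fits on only the 2 groups compared. Leaving out each array in turn gave 1285 to 1724, 85 to 304 and 650 to 1153. The R396Q over empty vector count was 98, 85 and 109 without R396Q 1, 2 and 3 and 165 without wild type 3, and the R396Q over wild type count 650, 702 and 788 without R396Q 1, 2 and 3. Of the 9 genes, 6, 2 and 3 were called, with 4 to 6, 1 to 2 and 2 to 3 when an array was left out. In R396Q over empty vector 1 was called without R396Q 1 or 3. In R396Q over wild type 5 were called with the replicate block and 1 in a fit on these groups alone. Among the pathway lists, R396Q over empty vector called 2, 1, 1 and 2 genes (other receptors, Smads and regulators, ligands, targets), and without R396Q 2 none in any of these lists. R396Q over wild type called 5 Smads and regulators, and 3 without any R396Q or empty vector array or wild type 1. The block changed the call of Tgfbr3 and Smad7 in R396Q over wild type and of no other of the 9 genes. Fits on fewer arrays have fewer residual degrees of freedom, and other causes were not tested.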
